A study of Homo sapiens with 22 samples.

Results

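Long noncoding RNA (lncRNA) genes other than listed snoRNA host genes and the most abundant lncRNAs were followed by BRIC-Seq. In this method, RNA is labelled with bromouridine (BrU), chased in medium without BrU, recovered with an anti-BrdU antibody and sequenced. Genes of GENCODE type lncRNA were taken, with 1 row per gene (the transcript with the highest mean count over the 0-10 h libraries) and a mean level of at least 1 CPM (counts scaled to a fixed library total). GAS5, ZFAS1, EPB41L4A-AS1, the SNHG genes, MALAT1, NEAT1, NORAD, TUG1, OIP5-AS1, KCNQ1OT1 and the genes of chromosomes X and Y were left out. This left 514 genes of 15093 genes tested. The snoRNA hosts were left out by symbol alone, so a host with another name can remain. The gene just inside the limit, ENSG00000284697, had 1.00132 CPM, and the gene just outside it, SH3BP5-AS1, had 0.996987 CPM. The limit and the mean level of a gene use this CPM. Levels by library, chase time or hairpin are CPM after TMM scaling, which makes a trimmed mean of the genes (called the bulk below) level between libraries. The libraries came from HEK293T cells, a human embryonic kidney line, in which ZNF598, a ubiquitin ligase that acts on collided ribosomes, was knocked down by a short hairpin RNA (shZNF598), or which carried a control hairpin (shControl). All cells were labelled with 150 µM BrU for 24 h and then chased. RNA was taken at the end of labelling (0 h) and after 2, 4, 6, 10 and 24 h. There were 2 libraries per hairpin at 0-10 h and 1 per hairpin at 24 h, which gives 22 libraries in 12 groups. Whether the cells of a hairpin were 1 clone or a pool, and whether the replicates were separate cultures, is not given in the sources used here, so p-values measure the spread between these libraries, which may be technical.

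A lncRNA is transcribed by RNA polymerase II and is often capped, spliced and polyadenylated like an mRNA, but it carries no long conserved reading frame. Many are retained in the nucleus, where the RNA exosome degrades a large part of the short-lived ones, and others reach the cytoplasm and meet the same decay enzymes as mRNA. Some act as RNA, as TERC does in telomerase, some serve as the precursor from which microRNAs are cut, and for many the act of transcription next to a coding gene is the known or proposed role.

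Total counts ranged from 52352359 to 96963584 at 0-10 h and were 21220829 and 40157613 at 24 h. The targeted gene, ZNF598, was at 7.28 CPM (shControl) and 0.857 CPM (shZNF598) at 0 h, and its shZNF598 level was 7.10% to 20.05% of shControl over 0-10 h and 49% at 24 h. Of the markers of the line, VIM was at 130 CPM, CDH2 at 16.9, KRT8 at 13.5, KRT18 at 12.3 and NEFM at 1.31 CPM, whereas PAX2 was near absent (0.0415 CPM). Markers of blood, liver, heart and endothelium were at or below 0.0107 CPM, INS and HBB were at 0, and COL1A1 was at 1.0 CPM. The lncRNA genes took 0.787% of all counts, and a gene had a median of 164 counts per library (the lowest count was 13). Across the 514 genes, the 2 libraries of a group correlated with a Pearson r of 0.960 in shControl cells at 0 h and of 0.982 to 0.992 in the other groups. The shControl 0 h libraries, the reference for the falls in shControl cells described below, were therefore the least alike. In bulk libraries, a change in some of the cells and a smaller change in all of them cannot be told apart.

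The lncRNA genes were mostly low. Of 514 genes, 455 had a mean below 10 CPM and 217 lay between 1 and 2 CPM, with a median of 2.36 CPM. By name, 281 carried only an Ensembl or clone identifier, 60 an antisense name (-AS), 36 an intergenic name (LINC), 18 a divergent name (-DT), 5 a microRNA host name and 3 an intronic or overlapping name, and 111 another symbol. The row was a lncRNA transcript for 481 genes and a retained-intron transcript for 33.

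Among the lncRNA genes are 4 that span known microRNAs and fell early in the chase, as described below. The mature microRNAs they encode show what each host is the precursor of. Capitals mark the seed, bases 2 to 8, through which a microRNA pairs with its targets (RefSeq, GRCh38). MIR17HG (chr13:91347820-91355068, plus strand) carries the miR-17-92 cluster, a proliferation-linked cluster in which miR-17-5p and miR-20a-5p share the seed AAAGUGC and both miR-19 forms share GUGCAAA.
miR-17-5p: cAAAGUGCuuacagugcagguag
miR-20a-5p: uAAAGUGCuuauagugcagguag
miR-18a-5p: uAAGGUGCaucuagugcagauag
miR-19a-3p: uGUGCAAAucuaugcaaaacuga
miR-19b-3p: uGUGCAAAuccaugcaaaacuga
miR-92a-3p: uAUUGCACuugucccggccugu
MIRLET7A1HG (chr9:94166258-94179564, plus strand) carries 3 members of the let-7 family, all with the seed GAGGUAG.
let-7a-5p: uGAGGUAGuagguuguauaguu
let-7f-5p: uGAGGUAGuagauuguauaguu
let-7d-5p: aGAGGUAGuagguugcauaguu
MIR34AHG (chr1:9148011-9182392, minus strand) carries miR-34a, a target of p53, and DLEU2 (chr13:50043435-50082056, minus strand), from the region of chromosome 13 often deleted in lymphocytic leukaemia, carries miR-15a and miR-16, which share the seed AGCAGCA.
miR-34a-5p: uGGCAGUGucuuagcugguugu
miR-15a-5p: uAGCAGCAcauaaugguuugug
miR-16-5p: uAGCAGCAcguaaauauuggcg

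A row can hold reads of another gene. Reads were 50 bases long, and rows that overlap another gene on the same strand could have nearly its counts (RN7SL2 and RPPH1 are examples). A read that matches more than 1 locus was to be dropped in the alignment, so sequence shared with a copy elsewhere in the genome can also lower a row. For each row, the share of its 50-base windows that occur in the same sense in a transcript of another gene was computed. The median was 48%. This share was under 10% in 163 genes, 10 to 50% in 102 and at least 50% in 249, and 93 genes shared no exonic base with another gene on either strand. The limit of 10% was set after the values were seen. The 163 genes under it are called unshared below, and the other 351 shared. Windows were compared with annotated transcripts alone, so intron reads of an overlapping gene on the same strand were not covered. Of the 163 unshared genes, 20 overlap a coding gene on the same strand.

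The rows with the highest level per kilobase were all shared rows, and most overlapped a known gene. ENSG00000282885 had 4332.36 CPM and RN7SL2, the RNA of the signal recognition particle that it overlaps, 4332.34 CPM. Only 17.5% of the windows of ENSG00000282885 were shared, so the share of windows is not the share of reads. ENSG00000259001 had 273.316 CPM, and RPPH1, the RNA of RNase P, had 273.313 CPM. Without these rows the lncRNA genes took 0.285% of all counts. UBBP4, a ubiquitin pseudogene (145.9 CPM), had 18.1% of its windows in UBB, a polyubiquitin gene (351.3 CPM), and 63.2% in transcripts of any other gene. ENSG00000285565 (63.8 CPM) had 67.6% of its windows in HSPA1B, which encodes the inducible chaperone HSP70 (137 CPM). Of the other rows with high levels per kilobase, ENSG00000264772 lay over EIF4A1, a translation initiation helicase, and ENSG00000235288 over HIGD1A, a mitochondrial protein gene. These sequences show 1 window of 50 bases in each of 2 rows that is found letter for letter in a transcript of the coding gene. ENSG00000285565 overlaps HSPA1B itself, whereas UBB lies at another locus than UBBP4.
ENSG00000285565 and HSPA1B, chr6:31829269-31829318, plus strand, GRCh38: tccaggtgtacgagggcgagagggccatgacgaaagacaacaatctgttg
UBBP4 and UBB, chr17:22204533-22204582, plus strand, GRCh38: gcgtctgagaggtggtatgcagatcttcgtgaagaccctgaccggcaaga

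On chromosome 21, 3 pairs of genes had the same count in every library. LINC01670 matched ENSG00000278878, ENSG00000274333 matched ENSG00000277991, and ENSG00000277067 matched ENSG00000276077. A further 2 genes, ENSG00000290685 and ENSG00000289755, matched identifiers that were not named here. Strand was kept apart. TTN-AS1, antisense to the muscle gene TTN, had 1.5 CPM per kb against 0.000611 for TTN, and ENTPD1-AS1 had 2.81 CPM per kb against 0.0139 for CC2D2B on the other strand.

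Decay was examined first over both hairpins. The slope of log2 counts on chase hours was fitted over the 20 libraries of 0-10 h after TMM scaling. This makes the bulk level but not the median gene. A slope above 0 therefore means a slower loss than the bulk and not a rise in amount. Of the 514 genes, 168 (32.7%) were lost more slowly and 170 (33.1%) faster than the scaled bulk (edgeR quasi-likelihood test, adjusted p below 0.05). Among all 15093 genes, 34.8% were slower and 46.8% faster. The median slope was -0.00166 log2 per hour for the lncRNA genes, -0.0245 for all genes and -0.0447 for 10961 protein-coding genes. A gene called faster than the bulk can thus be lost no faster than the median protein-coding gene. The division into slower and faster rests on the scaling, since with total counts alone 45 were slower and 331 faster, and the median slope of all genes was then -0.0966.

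The counts were then taken in unshared and shared genes apart, without a test between them. Of the 163 unshared genes, 28 (17.2%) were slower and 68 (41.7%) faster, with a median slope of -0.0331. Of the 351 shared genes, 140 (39.9%) were slower and 102 (29.1%) faster, with a median of 0.0173. Among all genes 34.8% were slower and 46.8% faster. In the unshared genes the faster calls outnumbered the slower ones under each scaling tried, with 36 slower and 59 faster under DESeq2 size factors and 8 slower and 119 faster with total counts alone. The same held for all 15093 genes. There 5259 were slower and 7069 faster, against 5841 and 6341 under DESeq2 size factors and 2927 and 10164 with total counts alone. For the unshared genes the balance changed with the chase times used. Without the 0 h libraries 68 of them were slower and 53 faster (median slope 0.0212), and over 0-24 h 33 were slower and 39 faster (median 0.000175). The part of the other genes' reads in these counts was not tested.

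**Figure D1:**
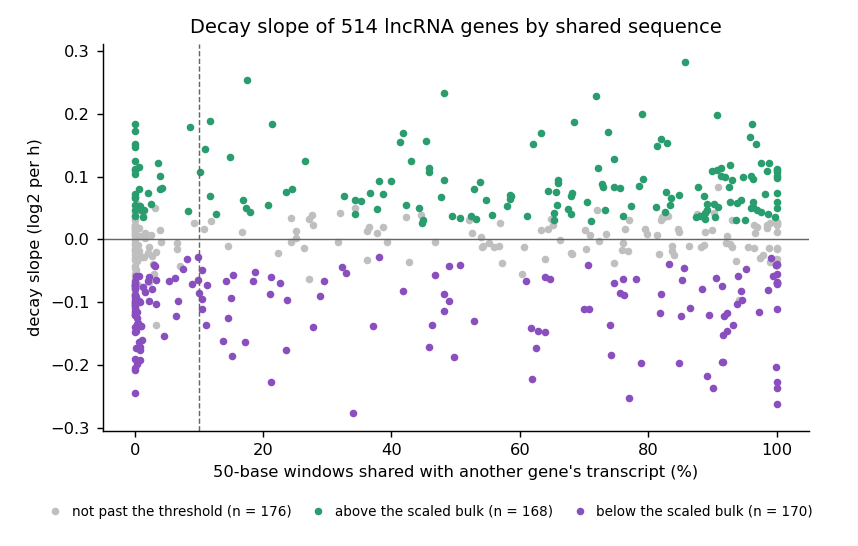
Decay slope over 0-10 h (log2 per hour, both hairpins) of each of the 514 lncRNA genes against the share of its 50-base windows found in a transcript of another gene (%). The dashed line marks 10%, and colours mark the 168 genes above the scaled bulk, the 170 below it and the 176 not past the threshold.

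The time course of the unshared genes was not a straight line. Their median level had fallen by 0.37 on the log2 scale at 2 h in shControl cells and by 0.33 in shZNF598 cells. It had dropped by 0.57 and 0.62 at 6 h, and then lay at -0.46 and -0.43 at 10 h and at -0.26 and -0.19 at 24 h, where there was 1 library per hairpin. Protein-coding genes kept their level at first, with medians of -0.02 and -0.03 at 2 h, and lay at -0.46 and -0.42 at 10 h. The median of the shared lncRNA genes moved little, at -0.05 and -0.07 at 2 h and 0.15 and 0.05 at 10 h. Single shared genes moved in both directions, with 140 of 351 slower and 102 faster over 0-10 h. At 2 h, the medians of the separate replicates were -0.35 and -0.32 for the unshared genes in shControl cells and -0.33 and -0.37 in shZNF598 cells.

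**Figure D2:**
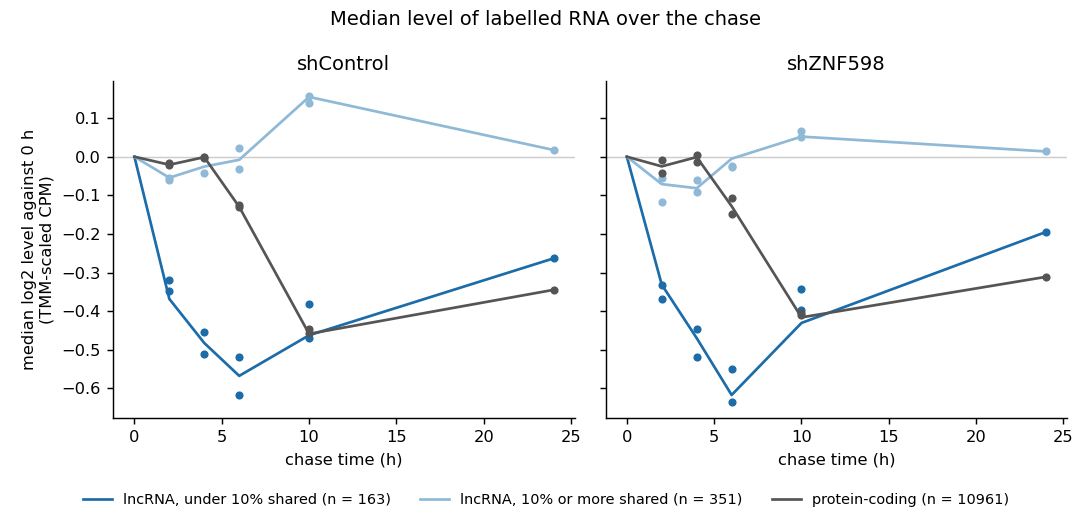
Median log2 level against 0 h (TMM-scaled CPM) over the chase (h) for unshared lncRNA genes, shared lncRNA genes and protein-coding genes, in shControl cells (left) and shZNF598 cells (right). Lines join the medians and points are the separate replicates (1 library at 24 h). The unshared genes were lower by 0.37 and 0.33 at 2 h, when the protein-coding median was near 0.

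Over the first 4 h alone, 201 of the 514 genes (39.1%) were faster and 92 (17.9%) slower than the bulk, against 30.2% and 31.2% of all genes. Of the 163 unshared genes, 98 (60.1%) were faster and 12 (7.36%) slower, and of the protein-coding genes 34.5% were faster. A level below 50% of 0 h already at 2 h, in both hairpins, was reached by 15 of 163 unshared genes (9.20%) and by 181 of 10961 protein-coding genes (1.65%). All of these 15 were higher at 10 h than at 6 h in both hairpins, relative to the scaled bulk. The share of other genes that did so was not counted, and the median of all unshared genes also rose between these times. TMM factors were 0.915 to 0.947 at 6 h and 0.717 to 0.771 at 10 h, and a lower factor gives a higher scaled level. Of the 28 unshared genes that were slower over 0-10 h, 6 were faster over 0-4 h, so the sign of a slope depends on the window for these genes.

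Several microRNA hosts fell early. MIR17HG had the lowest slope over 0-4 h of all 514 genes. It was at 6.55 and 8.54 CPM in shControl and 9.12 and 9.24 CPM in shZNF598 cells at 0 h, and at 0.525 and 0.823 CPM and 0.647 and 0.553 CPM at 2 h. The groups did not overlap, and 8.94% and 6.54% of the 0 h level was left. At 10 h it was at 2.46 and 2.44 CPM (shControl) and at 2.38 and 3.21 CPM (shZNF598). Its slope over 0-4 h was -0.91 log2 per hour (SE 0.13, edgeR, adjusted p = 4.55e-05), whereas its slope over 0-10 h was not past the threshold (-0.14, SE 0.069, adjusted p = 0.0727).

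MIRLET7A1HG, MIR34AHG and DLEU2 had also fallen by 2 h. MIRLET7A1HG was at 2.53 and 2.79 CPM (shControl) and 3.03 and 3.75 CPM (shZNF598) at 0 h and at 0.659 CPM in both shControl libraries and 0.712 and 0.818 CPM in shZNF598 cells at 2 h (24.8% and 22.6% left, slope over 0-4 h -0.56, SE 0.078, adjusted p = 2.82e-05). MIR34AHG kept 32.2% and 24.9% at 2 h (slope over 0-4 h -0.51, SE 0.068, adjusted p = 1.94e-05) and stood at 163% and 212% of its 0 h level at 24 h. DLEU2 kept 40.5% and 42.5% at 2 h (slope over 0-4 h -0.25, SE 0.063, adjusted p = 0.00316). DLEU2 is a shared gene, with 14.3% of its windows in other transcripts, and its slope over 0-10 h of -0.067 (adjusted p = 0.0313) lost its call when any of the 4 libraries of 0 h or the first shZNF598 library of 10 h was left out (-0.0482 to -0.0645).

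The other 2 microRNA hosts were not called over 0-4 h. MIR600HG, which lies within STRBP on the same strand, kept 92.3% and 93.9% at 2 h, and MIR924HG kept 97.6% and 110% (slopes over 0-4 h with adjusted p = 0.162 and 0.169). Over 0-10 h MIR600HG was slower than the bulk (0.082, SE 0.013, adjusted p = 7.22e-06) and MIR924HG faster (-0.097, SE 0.014, adjusted p = 1.70e-06). Of 88 genes on the list of microRNA hosts, these 6 were tested and the other 82 were below 1 CPM, the highest at 0.971 CPM. Over 0-10 h, 1 of the 6 was slower and 2 were faster, with a median slope of -0.0528 beside -0.0245 for all genes.

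Further genes that fell early, chosen after their values were seen, were ENSG00000276791, NFYC-AS1, LINC00235 and LINC00472. ENSG00000276791 kept 18.4% and 14.8% of its 0 h level at 2 h, LINC00235 20.9% and 16.6%, NFYC-AS1, divergent from the transcription factor gene NFYC, 28.6% and 20.6%, and LINC00472 31.4% and 37.2%. THUMPD3-AS1, a spliced antisense lncRNA next to SETD5, also fell and then rose against the bulk. It was at 5.14 and 4.10 CPM (shControl) and 6.11 and 5.55 CPM (shZNF598) at 0 h. The levels were 2.04 and 2.62 CPM and 2.50 and 1.85 CPM at 2 h, and 5.26 and 5.20 CPM and 5.77 and 5.00 CPM at 10 h. Its slope over 0-10 h was therefore near 0 (0.032, SE 0.031, adjusted p = 0.339), and over 0-4 h it was -0.27. With total counts alone the slope over 0-10 h was -0.038, so this value depends on the scaling.

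**Figure D3:**
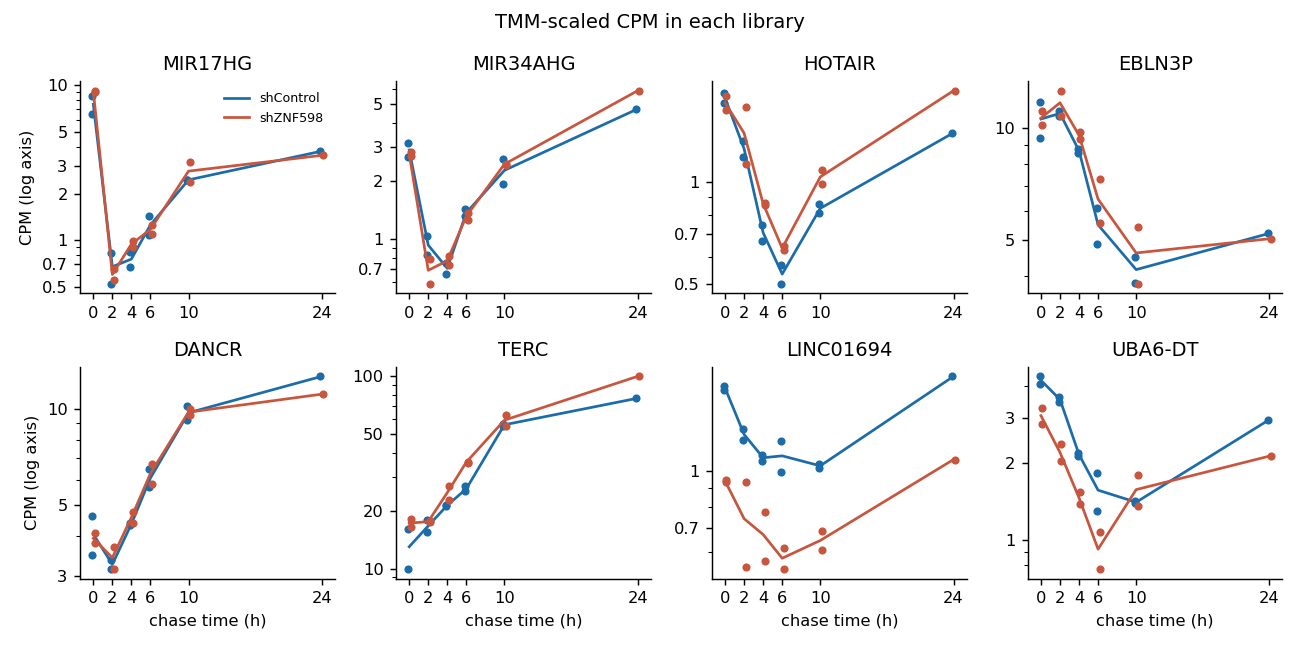
TMM-scaled CPM (log axis) in each library over the chase (h) for 8 lncRNA genes, with shControl in blue and shZNF598 in red. Points are libraries and lines join the means of each chase time, with 1 library per hairpin at 24 h. MIR17HG and MIR34AHG fell within 2 h, HOTAIR and EBLN3P later, DANCR and TERC rose against the bulk, and LINC01694 and UBA6-DT were lower in shZNF598 cells.

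The lowest slopes over 0-10 h belonged to 8 genes between -0.28 and -0.23 log2 per hour, 7 of them shared. ATP8B5P, a flippase pseudogene, was at 3.55 and 3.60 CPM (shControl) and 4.45 and 3.88 CPM (shZNF598) at 0 h, and at 0.603 and 0.560 CPM and 0.738 and 0.825 CPM at 10 h (slope -0.28, SE 0.032, adjusted p = 1.12e-07). H2BP1, a histone pseudogene (-0.25), and ENSG00000290735, which overlaps the histone gene H3-7 (-0.24), followed. ENSG00000261061 (in CENPN, -0.26), ENSG00000259623 (in KLHL11, -0.24) and ENSG00000260108 (in CYB5B, -0.23) were single-exon rows with every window in the transcript of another gene. LINC01719 had a slope of -0.23.

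The unshared gene among the 8 was ENSG00000277534, a single exon of 2821 bases within the same-strand gene KCTD1 (chr18:26542971-26545791, minus strand). It was at 4.35 and 4.13 CPM (shControl) and 5.06 and 5.21 CPM (shZNF598) at 0 h, at 1.47 and 1.41 CPM and 1.02 and 1.37 CPM at 4 h, and at 1.17 and 1.18 CPM and 0.886 and 0.896 CPM at 10 h. All libraries of 4 h and later lay below all libraries of 0 h. The slope was -0.25 (SE 0.034, adjusted p = 1.14e-06), and the apparent half-life by the study's rule was 2.36 h (shControl) and 2.13 h (shZNF598). Intron reads of KCTD1 could fall on this row and were not told apart.

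Of the 20 characterised lncRNAs tested, 6 were slower and 9 faster than the bulk over 0-10 h, with a median slope of -0.0267, beside 34.8% slower, 46.8% faster and a median of -0.0245 among all genes. EBLN3P, an RNA derived from an ancient bornavirus insertion, kept its level until 2 h and then fell. It was at 11.7 and 9.42 CPM (shControl) and 11.1 and 10.2 CPM (shZNF598) at 0 h and at 3.83 and 4.50 CPM and 5.41 and 3.82 CPM at 10 h (slope -0.15, SE 0.015, adjusted p = 2.43e-08). DLEU1, which starts beside DLEU2 on the other strand, fell more steeply (-0.19, SE 0.015, adjusted p = 3.07e-10), from 2.18 and 2.20 CPM to 0.775 and 0.680 CPM in shControl cells and from 1.83 and 2.25 CPM to 0.590 and 0.566 CPM in shZNF598 cells.

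HOTAIR, transcribed from the HOXC cluster and known as a partner of chromatin repressors, was lost faster as well. It was at 1.83 and 1.71 CPM (shControl) and 1.63 and 1.79 CPM (shZNF598) at 0 h, at 0.567 and 0.501 CPM and 0.647 and 0.628 CPM at 6 h, and at 0.810 and 0.860 CPM and 0.984 and 1.08 CPM at 10 h. The 6 h libraries were the lowest in both hairpins. The slope was -0.11 (SE 0.028, adjusted p = 0.00166), and it was not past the threshold without the 0 h libraries (-0.058). HCP5 and HCG11, both from the major histocompatibility region, had slopes of -0.15 and -0.047, and NUTM2A-AS1 and NUTM2B-AS1, which share most of their windows with other transcripts, had -0.15 and -0.13. MCM3AP-AS1 had -0.079, a slope that was -0.0076 without the 0 h libraries.

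TERC, the RNA component of telomerase, and DANCR, a lncRNA known for holding back differentiation, rose against the bulk. TERC was at 9.94 and 16 CPM (shControl) and 16.5 and 18.0 CPM (shZNF598) at 0 h and at 56.6 and 55.2 CPM and 55.3 and 62.8 CPM at 10 h, with 76.8 and 99.8 CPM at 24 h. All 10 h libraries lay above all earlier ones. The slope was 0.20 (SE 0.012, adjusted p = 4.26e-12), and 79.1% of the windows of its row occurred in a transcript of another annotated gene. DANCR (chr4:52712981-52714137, plus strand), with no shared window, was at 3.49 and 4.61 CPM (shControl) and 3.79 and 4.08 CPM (shZNF598) at 0 h and at 10.2 and 9.20 CPM and 9.95 and 9.55 CPM at 10 h. Its slope was 0.15 (SE 0.015, adjusted p = 1.15e-08). Whether DANCR hosts a snoRNA was not examined.

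GABPB1-AS1 (0.074), TTN-AS1 (0.068), LINC00467 (0.048) and SLC25A25-AS1 (0.036) were also slower than the bulk, each by less. TTN-AS1 was at 23.3 and 20.3 CPM at 24 h against 5.34, 5.26, 5.88 and 6.34 CPM at 0 h. GABPB1-AS1 fell first, from 4.71 and 3.57 CPM to 2.56 and 2.77 CPM at 2 h in shControl cells, and its slope over 0-4 h was -0.13. With total counts alone, the slopes of TTN-AS1 (-0.0041), LINC00467 (-0.024) and SLC25A25-AS1 (-0.036) were below 0. HCG18, HOTAIRM1, CHASERR, CRNDE and THUMPD3-AS1 were not past the threshold. CHASERR, which lies upstream of CHD2 and is known to repress it in cis, had a slope of -0.026 (SE 0.016, adjusted p = 0.128).

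The highest slopes were those of ENSG00000291225 (0.28) and of the rows over RN7SL2 (0.25) and RPPH1 (0.23), followed by FAM153CP (0.23), TERC, ENSG00000256100 (0.20), FHL1P1 and ENSG00000271853 (both 0.19). All 8 were shared rows. FAM153CP, a pseudogene, was at 6.88 and 8.11 CPM (shControl) and 7.69 and 7.46 CPM (shZNF598) at 0 h and at 32.8 and 34.7 CPM and 27.7 and 31.9 CPM at 10 h. FHL1P1 had 11.7% of its windows shared, the lowest share of the 8, and rose against the bulk from 0.934 and 1.32 CPM to 3.10 and 4.04 CPM in shControl cells.

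Slower and faster lncRNA genes can be set beside their sequences. The following stretches are the 80 bases of each row with most copies of ATTTA (then most T), the core of the AU-rich element of unstable mRNAs, and the part of TERC that templates telomere repeats (60 bases). The copies, and in TERC the template, are in capitals. They are shown for a gene lost fast, a gene lost late and 3 genes above the bulk, and give letters of the DNA strand that matches the RNA (GRCh38).
ENSG00000277534, chr18:26544304-26544383, minus strand: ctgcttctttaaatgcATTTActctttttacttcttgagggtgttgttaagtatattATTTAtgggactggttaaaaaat
EBLN3P, chr9:37083946-37084025, plus strand: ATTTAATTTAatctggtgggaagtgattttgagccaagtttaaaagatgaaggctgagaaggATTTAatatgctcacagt
DANCR, chr4:52713687-52713766, plus strand: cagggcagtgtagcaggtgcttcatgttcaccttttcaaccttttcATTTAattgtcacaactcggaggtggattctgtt
SLC9A3-AS1, chr5:480803-480882, plus strand: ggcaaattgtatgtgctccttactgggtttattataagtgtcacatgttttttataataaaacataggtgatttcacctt
TERC, chr3:169764976-169765035, minus strand: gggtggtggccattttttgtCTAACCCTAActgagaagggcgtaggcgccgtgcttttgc

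The whole row held 7 copies of ATTTA in ENSG00000277534, 24 in EBLN3P, 1 in DANCR and 0 in SLC9A3-AS1 and TERC. These copy numbers are not scaled to the length of the row. Searched on the sense strand alone, with overlapping copies counted, ATTTA occurred in 392 of the 514 rows (76.3%) and in 147 of the 163 unshared ones (90.2%). Over the 163 unshared genes, Spearman's correlation of the slope was -0.10 with ATTTA copies per kilobase, -0.18 with the share of U and 0.17 with the GC content. It was -0.11 with length, -0.069 with the number of exons and -0.030 with the mean CPM. These are descriptions across genes of the same libraries and are weak. The counts below stand beside 17.2% slower and 41.7% faster among all 163 unshared genes, and 34.8% and 46.8% among all genes. No test between the classes was made. Among the 55 unshared genes with most ATTTA per kilobase, 5 were slower and 25 faster (median slope -0.0418). Among the 54 with least, 13 were slower and 23 faster (median slope -0.0474). Among the 55 unshared genes of highest U content (28.5% or more), 4 were slower and 27 faster, and among the 54 of lowest U content 16 were slower and 16 faster. Likewise, 18 were slower and 19 faster among the 55 of highest GC content, against 5 and 24 among the 54 of lowest GC content. Of 51 unshared genes with a single exon, 11 were slower and 17 faster, and of 35 with 4 or more exons 4 were slower and 16 faster.

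By name class, 10 of 60 antisense genes were slower and 25 faster (median -0.0329), 10 of 36 intergenic genes were slower and 13 faster (median -0.0295) and 4 of 18 divergent genes were slower and 7 faster (median -0.0382). Among all genes 34.8% were slower and 46.8% faster (median -0.0245). The 281 genes without a name of their own had 98 slower and 93 faster (median 0.00556), and their 51 unshared genes had 5 slower and 23 faster.

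An antisense or divergent lncRNA starts beside or overlaps a coding gene on the other strand. Of 100 unshared genes with such a partner, 77 pairs could be tested. The lncRNA had the lower level per kilobase in 64 of 77 pairs and the lower slope in 30, with median slopes of -0.0258 for the lncRNAs and -0.0468 for the partners. Both were faster in 13 pairs and both slower in 5. Among all genes 46.8% were faster and 34.8% slower, but these are shares of single genes and not of pairs. The lncRNA and its partner were called in opposite directions in 13 pairs, of which the lncRNA was the slower RNA in 8. UBA6-DT was faster (-0.14, SE 0.024, adjusted p = 2.01e-05), whereas UBA6, which encodes an enzyme that activates ubiquitin, was slower (0.11, SE 0.019, adjusted p = 1.75e-05). NNT-AS1 (-0.14) and the mitochondrial gene NNT (0.19) were such a pair too, chosen after their values were seen.

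The question of the study, whether loss of ZNF598 changes RNA levels and decay, was then asked of the lncRNA genes. At the end of labelling (0 h), 1 of 514 genes was higher and 1 lower in shZNF598 cells, against 0.119% and 0.477% of all genes, and 50 had an unadjusted p below 0.05. ENSG00000285565, the row that shares its sequence with HSPA1B, was at 51.1 and 67.1 CPM in shControl and 116 and 104 CPM in shZNF598 cells. The groups did not overlap, and the difference was 0.90 on the log2 scale (SE 0.16, edgeR, adjusted p = 0.00421). HSPA1B itself was higher by 1.0 (adjusted p = 0.00229), so the 2 values are not independent. The lower gene, ENSG00000254290, an unshared single-exon lncRNA, was at 2.57 and 2.38 CPM in shControl and 1.28 and 1.42 CPM in shZNF598 cells (-0.87, SE 0.18, adjusted p = 0.0156). Its TMM-scaled mean over 0-10 h was 1.45 CPM (shControl) and 0.829 CPM (shZNF598). It therefore passed the limit of 1 CPM, set over both hairpins before TMM scaling, through shControl.

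Both calls rested on few libraries. Without the first shZNF598 library of 0 h neither gene was called (0.83 for ENSG00000285565 and -0.79 for ENSG00000254290), and ENSG00000254290 was also not called without the second shZNF598 library (-0.94) or the first shControl library of 0 h (-0.80). Without the second shControl library of 0 h 14 genes were called, and in a fit of the 0 h libraries alone 0 were called, where the DESeq2 Wald test on all libraries called 5. The genes next in rank were not past the threshold. ENSG00000282885 had a difference of 0.51 (adjusted p = 0.0952) and ENSG00000259001 of 0.67 (adjusted p = 0.0886), with the same values in RN7SL2 and RPPH1. ENSG00000237250 had -0.65 (adjusted p = 0.0600) and LINC01694 -0.85 (adjusted p = 0.0691).

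More genes differed when the level was averaged over the 5 chase times of 0-10 h. Of the 514 genes, 46 (8.95%) were higher and 44 (8.56%) lower in shZNF598 cells, against 14.0% and 11.4% of all genes. Among the 163 unshared genes 10 (6.13%) were higher and 20 (12.3%) lower, and among the 351 shared genes 36 were higher and 24 lower. Of 36 intergenic genes 0 were higher and 6 lower, and of 18 divergent genes 0 were higher and 3 lower (edgeR, with a median difference of -0.091 in both classes). Antisense genes had 6 higher and 10 lower of 60.

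Some of these genes had a mean below 1 CPM in 1 hairpin, since the limit applied to both hairpins together. Of the 44 lower genes 7 had a mean below 1 CPM in shZNF598 cells, among them LINC01694, ENSG00000254290, LINC01234 and ENSG00000243008, and of the 46 higher genes 3 had one below 1 CPM in shControl cells. A gene near the limit could enter through its higher hairpin, so the values of these genes are given as a description.

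The lowest estimates were those of LINC01694 and ENSG00000254290. LINC01694 (chr21:45593654-45603056, plus strand, 2 exons) was at 0.996 to 1.72 CPM in the 10 shControl libraries (median 1.16) and at 0.538 to 0.947 CPM in the 10 shZNF598 libraries (median 0.649), and the hairpins did not overlap. The difference was -0.79 (SE 0.10), and at 24 h the levels were 1.83 and 1.08 CPM. The mean of LINC01694 over 0-10 h was 1.24 CPM (shControl) and 0.715 CPM (shZNF598), so it passed the limit of 1 CPM through shControl. ENSG00000254290 ranged from 0.835 to 2.57 CPM in shControl (median 1.25) and from 0.546 to 1.42 CPM in shZNF598 cells (median 0.725). The difference was -0.79 (SE 0.091), with lower values in shZNF598 cells at each chase time. This gene also passed the limit through shControl, so both differences are a description.

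LINC01234, UBA6-DT, LINC00839 and SLC9A3-AS1, all unshared, were lower by 0.43 to 0.46. UBA6-DT (chr4:67701209-67723914, plus strand) was at 1.30 to 4.35 CPM in shControl (median 2.16) and at 0.773 to 3.27 CPM in shZNF598 cells (median 1.67), a difference of -0.45 (SE 0.084, adjusted p = 0.000406). The 10 h libraries of the hairpins overlapped (1.40 and 1.42 against 1.36 and 1.79 CPM). UBA6, whose start lies 54 bases away, was not past the threshold (-0.0079, SE 0.053, adjusted p = 0.935). SLC9A3-AS1 ranged from 0.904 to 2.48 CPM (median 1.39) and from 0.529 to 2.81 CPM (median 0.876), a difference of -0.43 (SE 0.086, adjusted p = 0.000924), and the sodium-proton exchanger gene SLC9A3 had -0.066 (adjusted p = 0.589). In SLC9A3-AS1 the ranges overlapped because the level rose over the chase in both hairpins, and at 10 h it was not lower in shZNF598 cells (2.48 and 2.36 against 2.57 and 2.81 CPM). LINC01234 was likewise lower at 0-6 h and not at 10 h (0.620 and 0.640 against 0.738 and 0.731 CPM).

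LINC00839 ranged from 1.12 to 2.36 CPM in shControl (median 1.68) and from 0.787 to 2.05 CPM in shZNF598 cells (median 1.22, difference -0.44, SE 0.086, adjusted p = 0.000680). The shared genes with the largest decreases were ENSG00000289755 (-0.55), in the sulfotransferase gene SULT1A1, FKBP9P1 (-0.48), ENSG00000237250 (-0.45) and ENSG00000243008 (-0.43). Among the lncRNAs of the HOX clusters, 3 of 18 were tested. HOXA11-AS was lower (-0.39, SE 0.10, adjusted p = 0.00752), and HOTAIR (0.19, adjusted p = 0.138) and HOTAIRM1 (-0.13, adjusted p = 0.258) were not past the threshold.

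**Figure D4:**
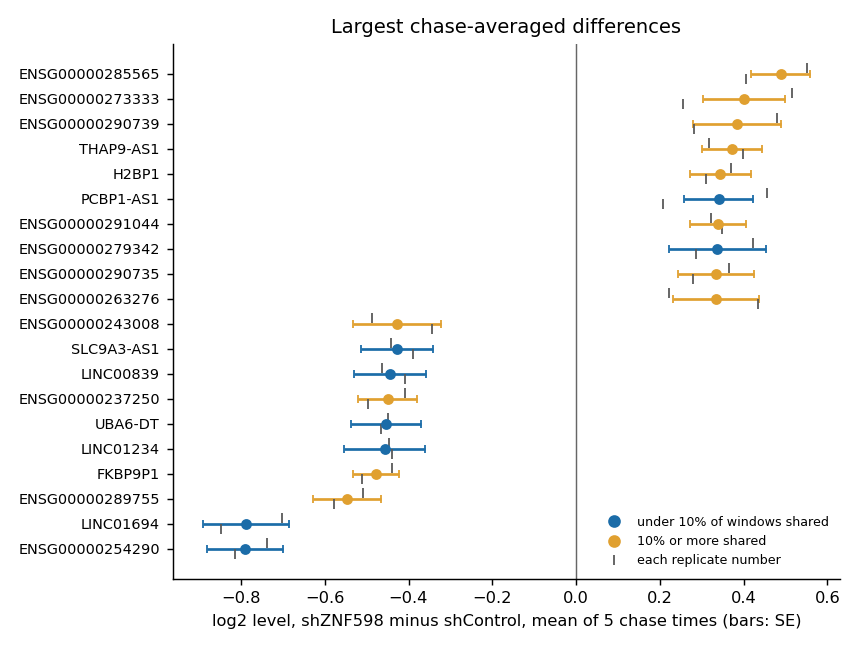
Difference in log2 level, shZNF598 minus shControl, averaged over the 5 chase times of 0-10 h, for the 10 lncRNA genes with the largest increase and the 10 with the largest decrease among those past the threshold. Points are estimates with bars of 1 SE, ticks are the separate replicate numbers, blue genes are unshared and orange genes shared. The decreases reach -0.79 in LINC01694 and ENSG00000254290, which passed the limit of 1 CPM through shControl. The largest increase is 0.49 in ENSG00000285565.

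The increases were smaller and mostly in shared rows. ENSG00000285565 was higher by 0.49 (SE 0.071, adjusted p = 2.56e-05) and HSPA1B by 0.53 (SE 0.072, adjusted p = 1.15e-05). H2BP1 (0.34) and ENSG00000290735 (0.33), the histone-related rows, THAP9-AS1 (0.37), ENSG00000273333 in PBX2 (0.40), ENSG00000290739 (0.38), ENSG00000291044 (0.34) and ENSG00000263276 in NFATC3 (0.33) were the other shared genes named for an increase. THAP9-AS1 had 15% of its windows shared and ranged from 2.08 to 4.61 CPM in shControl (median 2.66) and from 2.15 to 5.41 CPM in shZNF598 cells (median 3.38), with adjusted p = 0.000622. Its partner THAP9, a gene derived from a transposase, had 0.22 (adjusted p = 0.0613).

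PCBP1-AS1 and ENSG00000279342 were the unshared genes among the 10. PCBP1-AS1 (chr2:70030015-70086993, minus strand) was at 1.08 to 1.57 CPM in shControl (median 1.43) and at 1.20 to 2.12 CPM in shZNF598 cells (median 1.76), a difference of 0.34 (SE 0.083, adjusted p = 0.00476). PCBP1, which encodes a protein that binds poly(C) RNA, had 0.16 (adjusted p = 0.288). ENSG00000279342, a single exon within MSANTD2, had 0.34 (SE 0.12, adjusted p = 0.0354), but lost its call when any of 12 of the 20 libraries was left out (0.28 to 0.34). ENSG00000263276 lost its call without the first shZNF598 library of 4 h, 6 h or 10 h or the second shControl library of 10 h (0.28 to 0.31). Among the characterised lncRNAs, HCG11 (0.24, SE 0.056, adjusted p = 0.00336) and TERC (0.25, SE 0.065, adjusted p = 0.00713) were higher and LINC00467 (-0.27, SE 0.066, adjusted p = 0.00417) was lower.

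Of the 77 pairs of unshared lncRNAs and coding partners, 5 lncRNAs were higher over the chase and the partner of 0 of these was called, and 8 were lower and the partner of 1 of these was lower too. NOP14-AS1 (-0.30) and MFSD10 (-0.39, SE 0.073, adjusted p = 0.000392) were that pair. A partner was called where its lncRNA was not in 17 pairs, 9 higher and 8 lower. Of all genes tested, 14.0% were higher and 11.4% lower. SLC16A4 counts among the lower partners for both LAMTOR5-AS1 and SLC16A4-AS1.

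A difference in decay between the hairpins was not found for any of the 514 genes. The slope difference was called for 0 genes by the edgeR quasi-likelihood test and 0 by the DESeq2 Wald test, whereas 22 genes had an unadjusted p below 0.05, and 0.0663% of all genes were called. The slopes of the hairpins were close, with Spearman's correlation of 0.95 over the 514 genes and 0.93 over the 163 unshared genes, a description, since the genes share their libraries. The lowest unadjusted p among unshared genes named here were in ENSG00000263272 and CENATAC-DT. ENSG00000263272, which lies opposite RPAIN and within C1QBP, rose from 1.05 and 1.72 CPM at 0 h to 3.89 and 5.26 CPM at 10 h in shControl cells and from 1.96 and 1.84 CPM to 3.16 and 2.78 CPM in shZNF598 cells (-0.093 log2 per hour, SE 0.032, unadjusted p = 0.00864, adjusted p = 0.828). CENATAC-DT fell from 1.49 and 1.63 CPM to 0.620 and 0.480 CPM and from 1.25 and 1.29 CPM to 1.05 and 0.637 CPM (0.087, SE 0.034, unadjusted p = 0.0191). The others by this rule were ENSG00000291225 (0.19), ENSG00000290588 (0.094), FKBP9P1 (-0.082) and ENSG00000235288 (-0.052), all shared.

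Apparent half-lives were computed by the study's rule, with no spike-in factor, so they too are relative to the bulk. A reliable value (R2 above 0.9 and at most 24 h) in both hairpins was found for 93 of 514 genes (18.1%), with medians of 5.26 h (shControl) and 4.92 h (shZNF598). For the 41 unshared genes among them the medians were 4.23 h and 4.17 h, and for 2801 protein-coding genes 3.98 h and 4.12 h. The value was longer in shZNF598 cells in 41 of the 93 genes and in 1576 of the 2801 protein-coding genes. The order of the hairpins was not stable. On TMM-scaled CPM the medians of the lncRNA genes were 5.51 h (shControl) and 4.82 h (shZNF598). On the same scale they were 4.25 h and 4.68 h without replicate 1 of 0-10 h and 4.49 h and 4.60 h without replicate 2. Each of these fits kept the 24 h libraries and had its own set of reliable genes, so what turned the order was not tested. HOTAIR had 3.41 h and 4.17 h, HCP5 2.7 h and 2.41 h, DLEU1 6.51 h and 5.56 h and UBA6-DT 4.07 h and 3.92 h. The rule takes the best of 4 windows, and with a fixed window of 0-10 h only 14 genes had a reliable value.

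Many known lncRNAs were too low to be tested in this line. Of 67 characterised lncRNAs found in the files 42 were below 1 CPM, among them PVT1 (0.932 CPM), CYTOR (0.869 CPM), MIAT (0.660 CPM), H19 (0.424 CPM) and MEG3 (0 CPM). All 9 imprinted lncRNAs found were below 1 CPM, the highest being H19. The 26 nuclear and cytoplasmic decay factors examined beside them were all tested. Averaged over the chase, EXOSC10 (0.14) and PABPN1 (0.23), which act in nuclear RNA decay, were higher and the cytoplasmic exonuclease XRN1 (-0.22) was lower in shZNF598 cells, 23 were not past the threshold (14.0% of all genes were higher and 11.4% lower), and the slope difference was called for 0 by edgeR.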

How the data were processed

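BRIC-Seq libraries of HEK293T cells were analysed. Per the labels and the methods, the authors trimmed reads with fastp, removed reads of noncoding RNAs (which ones is not given in the sources used here) and aligned the rest with STAR 2.7.0a to hg38 with GENCODE release 32 (at most 1 mismatch, 1 locus per read), then used featureCounts for each transcript. The submitters' processing notes also name CASAVA 1.8. Raw counts were deposited. A lncRNA that resembles a removed RNA may be undercounted. Spike-ins were not used here.

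Identifiers were named with GENCODE release 44 (GRCh38). Of 227264 identifiers 92.2% matched with version and 98.4% without, and unmatched ones held 2.22% of counts. Of 17102 genes that fit the rule at any level, 10018 had a count and 514 reached 1 CPM, and 48 of these rows matched without version. Counts were analysed with edgeR 4.0.16 (TMM, quasi-likelihood test) and limma 3.58.1 in R 4.3.3, over 15093 genes with 1 row each, with Benjamini-Hochberg adjustment over all of them and a threshold of 0.05. The slope model had hairpin, hours and their product over 20 libraries of 0-10 h, and the level model 1 mean per group. Half-lives used DESeq2 1.42.0, over 22 libraries. The functions were tested on simulated data.

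The members and gene lists were chosen with earlier results of these data known. Genes were named by rule: the 8 highest per kilobase, the 8 lowest and 8 highest slopes, up to 10 per direction and hairpin comparison (filled to 3 by unadjusted p), the characterised lncRNAs, and coding partners within 5 kb or overlapping. Of the genes named by level per kilobase, 1 is not reported here. Other lists were microRNA hosts, HOX cluster lncRNAs, imprinted lncRNAs, name classes, decay factors and cell markers. Scaling, filter, test, rows, block, left-out libraries, window and half-life settings were varied. The fits on unshared genes and without the 0 h libraries were added after seeing the data.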

Additional observations from a re-analysis of the deposited data

How the results depend on the processing

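All counts below are of lncRNA genes past the threshold, by edgeR unless named. The slope calls numbered 338 and 330 to 345 when 1 library was left out. With DESeq2 size factors 204 were slower and 149 faster, with total counts alone 45 and 331, by DESeq2's Wald test 198 and 149, over 0-4 h 92 and 201, over 0-6 h 126 and 225, over 0-24 h 133 and 98, and without the 0 h libraries 221 and 153. At 0 h, 2 genes were called, 4 with total counts alone, 8 with no filter, 5 by DESeq2, 6 with the replicate block, 0 in the 0 h libraries alone, 1 among genes sharing no exonic base and 1 among unshared genes. Leaving out 1 library gave 0 to 14, with 0 and 1 without the first and second shZNF598 library of 0 h and 14 without the second shControl library of 0 h. Averaged over the chase 90 were called, 73 to 124 with 1 library left out, the highest (76 higher, 48 lower) without the first shControl library of 0 h. The slope difference was called for 0 under each setting and 0 to 0 with 1 library left out.

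The median slope of the lncRNA genes lay above the protein-coding median by 0.0430 log2 per hour (0.0360 to 0.0521 with 1 library left out). It was -0.0461 over 0-4 h and -0.00905 over 0-6 h, 0.0193 over 0-24 h, 0.0700 without the 0 h libraries, 0.0188 among genes sharing no exonic base and 0.0116 among unshared genes. The direction therefore depends on the window. Reliable half-lives numbered 93, 14 with a fixed window and 103 on TMM-scaled CPM.

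The replicate numbers were not taken as pairs, since the correlations of same-numbered shControl and shZNF598 deviations were mixed (0.0082, 0.12, 0.37, 0.31 and -0.25 from 0 to 10 h). With the replicate block the counts were 6 at 0 h, which include ENSG00000282885, ENSG00000259001, ENSG00000237250 and LINC01694 (adjusted p = 0.0198, 0.0416, 0.0442 and 0.0442), 338 for the slope, 98 over the chase (50 higher, 48 lower) and 0 for the slope difference.

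For 72 values of named genes, 1404 of 1440 refits without 1 library kept direction and call, 25 lost the call, 10 gained one and 1 reversed, ENSG00000285565 without the second shZNF598 library of 10 h (-0.0119, in a range up to 0.0393). Of 714 refits under other settings 628 kept both, 35 lost the call, 26 gained one and 25 reversed. The reversed slopes were, with total counts alone, ENSG00000285565 (-0.0485), ENSG00000264772 (-0.00590), LINC00467 (-0.0240), TTN-AS1 (-0.00408), THUMPD3-AS1 (-0.0377), HOTAIRM1 (-0.0524), SLC25A25-AS1 (-0.0356) and CRNDE (-0.0481). Over 0-4 h they were ENSG00000285565 (-0.246), THUMPD3-AS1 (-0.273), HOTAIRM1 (-0.00471), GABPB1-AS1 (-0.128) and CRNDE (-0.135), and over 0-6 h ENSG00000285565 (-0.200), THUMPD3-AS1 (-0.0888), GABPB1-AS1 (-0.0373) and CRNDE (-0.0481). Over 0-24 h they were HCG18 (0.00403), CHASERR (0.0237) and CRNDE (-0.0170), and without the 0 h libraries HCG18 (0.00546), DLEU2 (0.0336) and CHASERR (0.0122). The slope difference reversed in FKBP9P1 over 0-4 h (0.0160) and in CENATAC-DT over 0-24 h (-0.00383). The cause was not tested in these cases. Genes of 1 to 2 CPM rest on few counts, which limits the precision of each of these values.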
